A study of Sus scrofa domesticus with 150 samples.

Results

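Gene expression was compared between the edge and the center of porcine skin wounds on day 1 after wounding. The comparison used every library labelled day 1, which were 6 libraries from the wound edge and 6 from the wound center, 12 of the 150 libraries of the series. Wounds were full-thickness circular excisions on the backs of Yorkshire-mix domestic pigs, all female, and were covered with Telfa Clear and Tegaderm dressings with no other treatment. Small punch biopsies were taken from the edge and the center of the same wound, and RNA was sequenced from poly-A selected libraries. On day 1, 3 animals gave 2 wounds each, so each animal carried 1 wound with the letter A and 1 with the letter L. Wounds 1 and 2 came from animal 1323, wounds 3 and 4 from animal 1324 and wounds 5 and 6 from animal 1325, and in each pair the first number is wound A. The 6 day 0 libraries, made from whole skin excised at wounding from 6 animals, these 3 included, carry no location and are given beside the day 1 values as levels. No gene was altered and no drug was tested in any group, and a topical antibiotic was put on biopsied sites. The 2 wounds of an animal share that animal, so 6 wounds stand for 3 animals.

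An excisional wound of full thickness removes the epidermis and dermis. Its edge borders intact skin, from which keratinocytes of the epidermis and of hair follicles later move over the bed, while its center is filled first by clot, blood-derived leukocytes and the tissue beneath the excision. In early wounds the keratinocytes of the border switch on stress keratins and collagenase, neutrophils and macrophages enter the bed, and vessels and fibroblasts start to form granulation tissue.

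Levels are given as CPM, the counts of a gene per fixed number of counts in the library after TMM scaling. For each group of 6 libraries the lowest, the median and the highest value are given. Differences are log2 fold changes, edge minus center, with their standard error (SE) from edgeR's quasi-likelihood test with the wound as a block. A gene said to rise at the edge was higher there than in the center, whatever its level on day 0. A gene was called when its Benjamini-Hochberg adjusted p was below 0.05 over all 14432 genes tested. Biopsies are mixtures of cell types, so fewer cells of a type and less RNA per cell cannot be told apart. Symbols of several keratins, serpins and chemokines rest on a match to a protein. Reads of near-identical members of these families, of S100 proteins and of metallothioneins may be shared between them. Some genes that most cells use, such as ALDOA and COX6C, were listed near 0 in both groups, so a gene near 0 here may be one that the gene model misses.

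The day 1 libraries held 13685366 to 19093847 counts and between 17852 and 18980 genes with a count. The first principal component of the 18 libraries carried 65.6% of the variance and separated edge from center, as the plot of principal components shows. Edge libraries had a median correlation of 0.9579 with each other and center libraries one of 0.9583, against 0.8085 between an edge and a center library. The center library of wound 5 stood apart. It lay at -35.3 on the first component, while the other centers lay between -135.842 and -115.588 and the edges between 1.691 and 54.072. Over 1940 genes higher at the edge in the other 5 wounds, its level lay at the median 59.9% of the way from center to edge, but over 1719 genes higher in the center this was 9.11%. Its sum over the suprabasal keratinocyte list was 18380 CPM, against 850.9 to 2756 CPM in the other centers. The center library of wound 6 held skeletal muscle genes at a sum of 12190 CPM, against 6.88 to 35.7 CPM in the other day 1 libraries, and led by CKM, the creatine kinase of muscle, at 2138 CPM. Without wound 6 the counts of called genes were 3199 at the edge and 3092 in the center. Values without wound 5 are therefore given beside the results on keratinocytes.

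**Figure D1:**
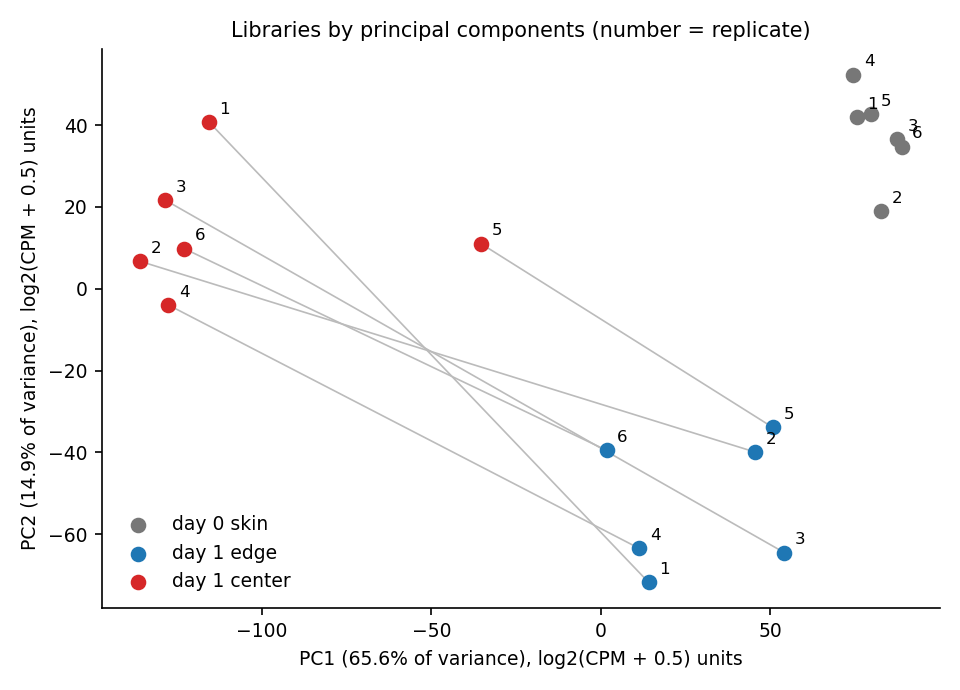
Libraries placed by the first and second principal components of log2(CPM + 0.5), with the share of variance on each axis. Points are libraries numbered by replicate, colored by group, and a line joins the edge and center of 1 wound. Edges lie to the right of the centers in all 6 wounds, and the center of wound 5 lies between the groups.

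Edge and center differed in 6658 of the 14432 genes tested, which is 46.1%. Of these, 3421 genes (23.7% of those tested) were higher at the edge and 3237 (22.4%) were higher in the center. A fold of at least 2 was reached by 1927 and 1852 of them, or 13.4% and 12.8%. In 2077 genes (14.4%) every edge library was above every center library, and in 1576 (10.9%) every one was below, 25.3% together. The median difference over all tested genes was 0.00, and the counts called without wound 5 were 3050 at the edge (21.2% of 14354 tested) and 2820 in the center (19.6%). Summing the 2 wounds of each animal gave 2928 and 3302 calls with 3 animals.

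Among genes with a symbol, the same direction in all 6 wounds and a median of at least 5 CPM, the 15 with the largest differences at the edge were mostly genes of stratified epithelium. Among them were DSG1, DSG3, DSC1 and DSC3, cadherins of desmosomes, the junctions that rivet keratinocytes together. PKP1, PKP3, DSP and PERP, also among them, tie these cadherins to the keratin cytoskeleton or stabilise the junction. The others were the keratin KRT6B, the protease KLK6, the serpin SERPINB5, the basal transcription factor BNC1 and the membrane protein PROM2. POF1B, an actin-binding junction protein, and ARHGEF5 completed the 15. The edge medians of DSG1, DSC1 and PKP1, at 2560, 1380 and 2218 CPM, were below their day 0 medians of 3193, 2241 and 2605 CPM. Those of DSG3, KRT6B and KLK6, at 805.2, 1041 and 260.6 CPM, were above day 0 medians of 538.2, 183 and 31.7 CPM. DSP was at 3549, 4320 and 5112 CPM at the edge and 10.12, 22.52 and 1548 CPM in the center, a log2 difference of 7.27 ± 1.15 (SE, n = 6 wounds, adjusted p = 0.00258). PROM2 was at 198.7, 286.8 and 373.7 CPM at the edge against 0.1298, 0.7019 and 78.97 CPM, a difference of 7.69 ± 1.28 (SE, adjusted p = 0.00302). Edge and center did not overlap for any of the 15, beside 14.4% of all tested genes apart in this direction. The 15 were chosen by size and direction in the same libraries, so this is a description. For each of them the highest center was that of wound 5.

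By the same rule, the 15 genes with the largest differences in the center were mostly genes of fat. Besides the adipocyte hormones ADIPOQ and LEP and the lipid droplet proteins PLIN1 and CIDEC, they included MLXIPL (the glucose-sensing factor ChREBP), THRSP (a lipogenic nuclear protein), TRARG1 (a regulator of GLUT4 traffic), LGALS12 (a galectin of adipocytes), ABCD2 (a peroxisomal fatty acid transporter), NPTX1, OACYL, KLHL31, SGK2 and ALDH1L1. NPTX1, known as a neuronal pentraxin, was at 198.5, 425.4 and 733.1 CPM in the center and 1.364, 5.537 and 49.01 CPM at the edge, a difference of -5.86 ± 1.01 (SE, adjusted p = 0.00346). None of the 15 overlapped between the groups, beside 10.9% of all tested genes apart in this direction. These 15 too were chosen by size and direction in the same libraries, so this is a description.

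The largest median difference among the 40 lists was that of suprabasal keratinocyte genes. Of 22 tested genes of suprabasal keratinocytes and cornification, 21 rose at the edge, and of 13 basal keratinocyte genes 12 did, against 23.7% of all tested genes. The median log2 differences were 7.00 and 4.39, beside 0.00 for all genes. KRT10 (ENSSSCG00025042112), the keratin of cells that have left the basal layer, was at 11840, 15540 and 20640 CPM at the edge. In the center it was at 42.2, 85.8 and 5907 CPM, and the 5907 CPM was wound 5. The difference was 7.19 ± 1.17 (SE, n = 6 wounds, adjusted p = 0.00281), and the groups did not overlap. Edge levels of KRT10 were within the range of day 0 skin, where its median was 19270 CPM.

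KRT5 (ENSSSCG00025059933), the keratin of the basal layer, stood at 7833, 13010 and 15970 CPM at the edge and at 24.2, 66.2 and 3397 CPM in the center, with a median of 8522 CPM on day 0. TP63, the transcription factor that marks and maintains basal epidermis, was at 190, 229 and 283 CPM at the edge and 0.519, 0.924 and 68.7 CPM in the center. Both were clear of overlap, with differences of 7.17 ± 1.05 (SE, adjusted p = 0.00209) and 7.22 ± 1.12 (SE, adjusted p = 0.00245). COL17A1, the hemidesmosomal collagen that anchors basal cells, rose by 7.06 ± 1.10 (SE, adjusted p = 0.00251) and TRIM29, a basal epithelial gene, by 7.20 ± 1.07 (SE, adjusted p = 0.00215). Hemidesmosome genes that other cells also use rose by less, ITGA6 by 2.70 and ITGB4 by 2.68. DST, which has forms in nerve and muscle as well as skin, was at 118 CPM at the edge and 180 CPM in the center and was not called (adjusted p = 0.109). TGM3 was the suprabasal gene that was not called, with medians of 680 and 1099 CPM (adjusted p = 0.174).

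Enzymes that build the lipid barrier of the epidermis followed, with 12 of 14 tested genes higher at the edge, beside 23.7% of all tested genes. Their median difference was 5.48. ALOXE3, a lipoxygenase of the ceramide pathway, was at 59.1, 70.9 and 92.1 CPM at the edge and at 0.0649, 0.448 and 30 CPM in the center (6.52 ± 1.02 SE, adjusted p = 0.00255). ABCA12, which loads lipid into lamellar granules, rose by 6.89 ± 1.13 (SE, adjusted p = 0.0029) and CERS3, a ceramide synthase, by 6.92 ± 1.14 (SE, adjusted p = 0.00291). In the center ALOXE3 and ABCA12 had median counts of 8.5 and 8, and they passed the filter mainly through their edge libraries. Their calls are a description, and the count of 12 holds both. SLC27A4 and UGCG, which many tissues use, had edge medians of 59.2 and 45 CPM and center medians of 55.9 and 34.9 CPM and were not called.

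Stress keratins of the epidermis, which keratinocytes switch on after injury, stood above day 0 skin at the edge. KRT6C was at 4228, 8330 and 14090 CPM at the edge and 16, 47.2 and 1799 CPM in the center, and its day 0 median was 940 CPM. KRT6B was at 583, 1041 and 1695 CPM at the edge, 1.56, 4.54 and 259 CPM in the center and 183 CPM at the median on day 0. KRT6C rose at the edge by 7.11 ± 1.03 (SE, adjusted p = 0.00204) and KRT6B by 7.32 ± 1.10 (SE, adjusted p = 0.00224). Every edge library was above every center and every day 0 library for both keratins, whose reads may be shared. KLK6, a kallikrein protease, and GJB2, the gap junction protein connexin 26, rose with them by 7.34 ± 1.37 (SE, adjusted p = 0.00449) and 6.88 ± 1.10 (SE, adjusted p = 0.00269). Of the 10 tested genes of this list 9 rose at the edge, beside 23.7% of all tested genes. The tenth, SLPI, a secreted inhibitor of neutrophil elastase, was higher in the center. SLPI stood at 52.4, 97.3 and 160 CPM there and at 8.87, 14.7 and 27.2 CPM at the edge (-2.61 ± 0.40 SE, adjusted p = 0.00233).

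The keratinocyte results depended on how wound 5 was treated. In the other 5 wounds the median difference of the suprabasal list ran from 6.33 to 8.19, and in wound 5 it was 1.49. Without wound 5 the list medians rose to 7.64 for suprabasal and 4.96 for basal genes, and KRT10 differed by 7.79. With the wounds of each animal summed, which leaves 3 replicates, only 2 suprabasal, 6 basal, 1 of 15 barrier and 1 of 10 stress genes were called at the edge, and KRT10, KRT5 and TP63 had adjusted p-values of 0.086, 0.0648 and 0.0773. When wound 5 was left out of those sums, 22 of 23 suprabasal, 12 of 13 basal, 13 of 15 barrier and 9 of 10 stress genes were called, and KRT10 had an adjusted p of 8.89e-05. The same sums gave adjusted p-values between 0.073 and 0.114 for the 15 leading edge genes, and values from 8.89e-05 to 0.000316 without wound 5. What put keratinocyte RNA in that center library was not tested.

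**Figure D2:**
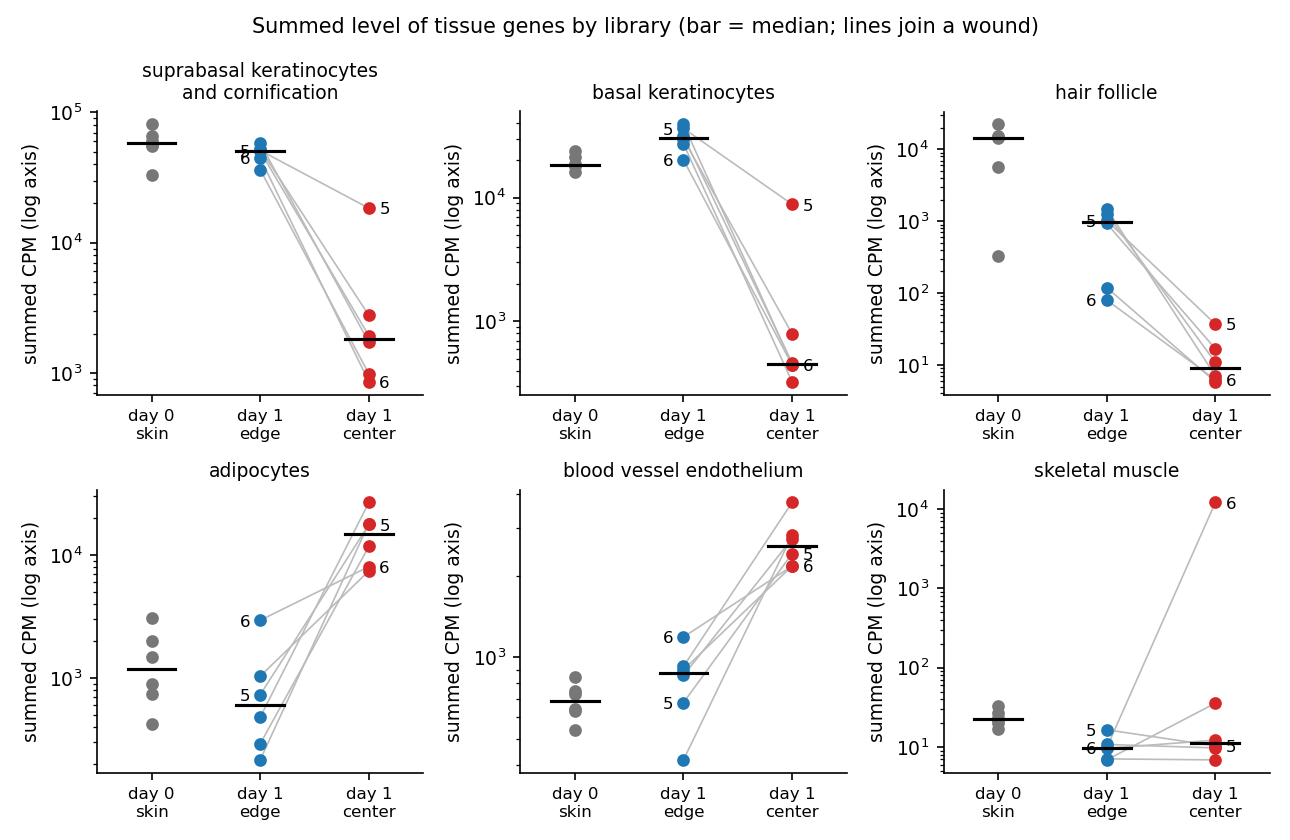
Summed CPM of 6 gene lists in each library on a log axis, in day 0 skin, at the day 1 edge and in the day 1 center. Points are libraries, bars are medians, lines join the edge and center of a wound, and wounds 5 and 6 are numbered. The keratinocyte sums of the center of wound 5 were nearest to those of the edges, adipocyte and endothelial sums were higher in every center, and skeletal muscle genes were high in the center of wound 6.

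Hair follicle genes were an edge signal that differed between wounds. Of the 22 members that could be matched, 11 were too low to be tested. The other 11 were called at the edge, beside 23.7% of all tested genes, with a median difference of 5.74. Members such as LHX2 and FOXN1, near 0 in the center, passed the filter on low counts through their edge libraries alone, so this count and median are a description. With no filter 19 of 22 were called at the edge and none in the center. LHX2, a transcription factor of follicle stem cells, was at 2.08, 15.4 and 24.2 CPM at the edge and 0, 0.0493 and 1.44 CPM in the center (6.49 ± 0.89 SE, adjusted p = 0.00179). FOXN1, which drives hair keratin expression and keratinocyte maturation, rose by 6.92 ± 1.09 (SE, adjusted p = 0.00259), and SOX9, needed for the follicle bulge, by 4.19 ± 0.37 (SE, adjusted p = 0.00102). Edge and center did not overlap for these 3. KRT71, a keratin of the inner root sheath, was at 0, 184 and 512 CPM at the edge, 0.058, 0.47 and 3.94 CPM in the center and 4474 CPM at the median on day 0. The edges of wounds 4 and 6 were not above the highest center for KRT71 and KRT27, and the other 4 edges were. The summed list was 119.5 and 80.03 CPM at the edges of these wounds and 930.1 to 1492 CPM at the other 4. Day 0 skin itself ranged from 323 to 22300 CPM in this sum.

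Genes of sweat and sebaceous glands showed 8 members higher at the edge and 2 in the center among 10 tested. Over all tested genes these shares were 23.7% and 22.4%. With no filter 9 of 13 matched members were called at the edge and 2 in the center. AQP5, the water channel of secretory cells, was at 0.873, 4.17 and 14.7 CPM at the edge and 0, 0.173 and 0.828 CPM in the center, which did not overlap (4.34 ± 0.81 SE, adjusted p = 0.00449). AQP5 was near 0 in most centers and passed the filter mainly through its edge libraries, so its call is a description. The simple-epithelium keratin KRT8 rose by 4.51 ± 0.72 (SE, adjusted p = 0.00269) and the carbonic anhydrase CA6 by 6.19 ± 0.77 (SE, adjusted p = 0.00151). FAR2 and MC5R, which serve lipid metabolism in sebaceous and fat cells, were higher in the center. Defining pigment genes gave little to compare. DCT, TYR, TYRP1 and MLANA were below the filter, and MITF, the melanocyte regulator that other cells use too, was at 32.2 CPM at the edge and 34.5 CPM in the center (adjusted p = 0.917).

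Cell cycle genes rose at the edge. Of 23 tested members 22 were higher there, beside 23.7% of all tested genes, and none in the center. The median difference was 2.52, and 19 were called without wound 5. RRM2, the ribonucleotide reductase subunit made in S phase, was at 108, 136 and 152 CPM at the edge, 6.39, 10.1 and 42.4 CPM in the center and 32.9 CPM at the median on day 0. All edges were above all centers (3.44 ± 0.40 SE, adjusted p = 0.0014). MKI67, the antigen of cycling cells, was at 51.2, 74.8 and 135 CPM at the edge against 11.1, 15.2 and 49 CPM, with a day 0 median of 46.2 CPM (2.27 ± 0.41 SE, adjusted p = 0.00394). Among mitotic genes, CCNB1 was higher by 3.59 ± 0.63 (SE, adjusted p = 0.00363) and BUB1B by 3.18 ± 0.53 (SE, adjusted p = 0.00296). The replication helicase genes MCM2, MCM5 and MCM6 rose by 0.88, 0.83 and 0.81, overlapped between edge and center and were not called without wound 5 (adjusted p of 0.0889, 0.0646 and 0.0535). The median of the list was 0.65 in wound 5 and 2.54 to 3.02 in the others. The summed list was 653.1 CPM in the center of wound 5 and 254.9 to 583.9 CPM in the other centers. The reason for the smaller difference in wound 5 was not tested. With animals summed 20 members were called at the edge.

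Genes of cholesterol synthesis held 11 members higher at the edge and 1 higher in the center among 22 tested, beside 23.7% and 22.4% of all tested genes. HMGCS1 (ENSSSCG00025074014), the cytosolic HMG-CoA synthase, was at 244.9, 302.6 and 455.7 CPM at the edge, 75, 93.38 and 145.1 CPM in the center and 255.2 CPM at the median on day 0. The groups did not overlap (1.65 ± 0.16 SE, adjusted p = 0.0011). DHCR7, the last enzyme of the pathway, rose by 1.93 ± 0.20 (SE, adjusted p = 0.00119) and the regulator SREBF2 by 1.19 ± 0.13 (SE, adjusted p = 0.00126). INSIG1, which holds the SREBP factors back, was higher in the center (-0.99 ± 0.23 SE, adjusted p = 0.0106). The list's median was between 0.38 and 0.60 in each of the 6 wounds, wound 5 included, and 11 members were called at the edge with animals summed.

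Receptors and ligands of growth factor pathways split between the sites. The EGF receptor family and its ligands had 7 of 10 tested members higher at the edge, the receptors ERBB3 (3.45 ± 0.38 SE, adjusted p = 0.00133), ERBB2 (2.17 ± 0.34 SE, adjusted p = 0.00243) and EGFR (1.33 ± 0.19 SE, adjusted p = 0.00186) and the ligands TGFA, EGF, EREG and HBEGF. BTC, betacellulin, was the ligand higher in the center, at 21.4, 38.4 and 44.3 CPM against 3.49, 9.39 and 29.1 CPM at the edge (-1.74 ± 0.46 SE, adjusted p = 0.0175), a call that was lost without wound 3. AREG and NRG1 were not called. Over all tested genes 23.7% were called at the edge and 22.4% in the center. EGFR was at 205, 233 and 244 CPM at the edge and 66.8, 76.2 and 180 CPM in the center, and its day 0 median was 392 CPM.

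In the FGF, HGF, PDGF and VEGF list, 4 of 21 members were higher at the edge and 15 in the center. Over all tested genes 23.7% and 22.4% were called, so only the share in the center stood above that of all genes. Those at the edge were the receptors FGFR3, FGFR2 and MET and the ligand FGF22, which was not called without wound 5 (adjusted p = 0.0513). FGFR3 was at 345, 551 and 632 CPM at the edge and 2.91, 5.25 and 157 CPM in the center, without overlap (6.19 ± 0.87 SE, adjusted p = 0.00186). MET, the receptor of HGF, rose by 2.43 ± 0.32 (SE, adjusted p = 0.00164). Most ligands went the other way. HGF itself was at 10.1, 21.3 and 30.6 CPM there and at 1.56, 2.31 and 6.32 CPM at the edge (-2.82 ± 0.54 SE, adjusted p = 0.00499). FGF10, a ligand of the FGFR2 form of epithelia, was at 9.12, 17.4 and 30.6 CPM in the center against 0.584, 1.61 and 4.58 CPM (-3.40 ± 0.65 SE, adjusted p = 0.0049). IGF1 (ENSSSCG00025065189), insulin-like growth factor, was at 45.4, 67.9 and 84.5 CPM in the center against 3.05, 5.5 and 18.5 CPM, above the day 0 median of 5.26 CPM (-3.25 ± 0.41 SE, adjusted p = 0.00153). Neither HGF, FGF10 nor IGF1 overlapped. FGF1, FGF2, FGF18, PDGFB, PDGFD, VEGFC, PGF and IGF2 were called in the same direction, while VEGFA, the main endothelial growth factor, was at 37.2 CPM at the edge and 60.6 CPM in the center and was not called (adjusted p = 0.203).

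WNT pathway genes had 9 members higher at the edge and 6 in the center of 22 tested, beside 23.7% and 22.4% of all tested genes. WNT7B was at 91.8, 110 and 148 CPM at the edge and 0.714, 2.29 and 41.2 CPM in the center (5.28 ± 0.88 SE, adjusted p = 0.00305), and WNT3, WNT10A and WNT16 differed by 5.19 to 5.77. These are ligands that epidermis and follicles make. Those higher in the center were the secreted antagonists SFRP1, SFRP4, FRZB and DKK2, the activator RSPO3 and the feedback gene NKD1, which stood at 19.2, 33.7 and 77.7 CPM against 3.9, 7.38 and 12.4 CPM. The pathway target AXIN2 was at 18 CPM at the edge and 5.83 CPM in the center and was not called (adjusted p = 0.0574).

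Of 18 matrix metalloproteinases and inhibitors, 5 were higher at the edge and 6 in the center, shares not far from the 23.7% and 22.4% of all tested genes. MMP1 (ENSSSCG00025039149), interstitial collagenase, was at 489, 621 and 900 CPM at the edge, 2.85, 6.94 and 236 CPM in the center and 0.539 CPM at the median on day 0. Every edge was above every center and every day 0 library (6.31 ± 0.86 SE, adjusted p = 0.00179). MMP12, macrophage elastase, was at 13.4, 17 and 24 CPM at the edge against 0.0649, 0.531 and 8.99 CPM (4.81 ± 0.96 SE, adjusted p = 0.00584). In both genes the highest center was wound 5. MMP12 was near 0 in most centers and passed the filter mainly through its edge libraries, so its call is a description. MMP7 and MMP13 rose at the edge too. In the center, the gelatinase MMP2 was at 793, 1143 and 1353 CPM against 222, 416 and 658 CPM (-1.38 ± 0.29 SE, adjusted p = 0.00724), and MMP19, ADAMTS4 and the inhibitors TIMP2, TIMP3 and TIMP4 were called. MMP9 and TIMP1 had no call, with edge medians of 193 and 561 CPM and center medians of 162 and 582 CPM. Without wound 3 or 4 there were 3 members called at the edge, with animals summed 2, and MMP1 had an adjusted p of 0.0591, or 0.000101 without wound 5.

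Fat cell genes made up the other large difference. All 13 adipocyte genes tested were higher in the center, against 22.4% of all tested genes, with a median difference of -4.99. ADIPOQ (ENSSSCG00025002178), the hormone adiponectin, was at 1968, 4482 and 9541 CPM in the center, 10.3, 78.3 and 680 CPM at the edge and 287 CPM at the median on day 0 (-5.84 ± 1.24 SE, adjusted p = 0.00747). PLIN1, which coats the lipid droplet, was at 672, 1328 and 2907 CPM in the center against 3.12, 32.6 and 209 CPM (-5.58 ± 1.18 SE, adjusted p = 0.00752). LEP, leptin, was at 66.8, 164 and 310 CPM in the center against 0, 3.3 and 21.2 CPM (-5.78 ± 1.26 SE, adjusted p = 0.00826). For each of the 13 genes the lowest center was above the highest edge, beside 10.9% of all tested genes. PPARG, the master regulator of the fat cell, differed by -4.22 ± 0.59 (SE, adjusted p = 0.00189), LPL by -4.83 ± 0.85 (SE, adjusted p = 0.00365) and CD36, the fatty acid receptor, by -4.86 ± 0.98 (SE, adjusted p = 0.00624).

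The summed adipocyte list came to 7436, 14740 and 26810 CPM in the center and to 216.3, 606.9 and 2951 CPM at the edge, where day 0 skin had 426.8, 1192 and 3059 CPM. The difference varied between wounds, from a median of -1.59 in wound 6 and -3.09 in wound 4 to -7.26 in wound 3, and it was -4.79 in wound 5. The edges of wounds 4 and 6 had the highest levels of ADIPOQ among edges, at 213.9 and 680.2 CPM, and were the same edges that had the least of the hair follicle genes. With animals summed 9 of 13 members were called and ADIPOQ had an adjusted p of 0.0505, and without wound 5 these were 4 of 13 and 0.0776.

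Blood vessel genes were higher in the center in 20 of 23 members tested, beside 22.4% of all tested genes. None were higher at the edge, and the median difference was -1.76. CDH5 (ENSSSCG00025077406), the cadherin of endothelial junctions, was at 174, 212 and 381 CPM in the center, 28.6, 49.7 and 85.5 CPM at the edge and 56.5 CPM at the median on day 0 (-2.24 ± 0.31 SE, adjusted p = 0.00183). ROBO4, a guidance receptor of endothelium, was at 37, 55.4 and 109 CPM in the center against 3.83, 8.23 and 17.1 CPM (-2.74 ± 0.41 SE, adjusted p = 0.00214). Neither overlapped, and the edge medians of both lay within the range of day 0 skin. The receptors KDR, FLT1 and TEK differed by -2.14 ± 0.26 (SE, adjusted p = 0.00142), -1.51 ± 0.18 (SE, adjusted p = 0.00138) and -1.87 ± 0.26 (SE, adjusted p = 0.00179). APLN, a peptide of sprouting tip cells, and ANGPT2, which loosens vessels, were higher in the center by 37.7 against 7.67 CPM and 26.6 against 6.93 CPM at the median. The adhesion molecules VCAM1, ICAM1 and SELP were called in the center, and SELE was not (44.8 against 25.4 CPM, adjusted p = 0.08). VWF was near 0 in both groups.

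The endothelial difference was found in each wound, with medians from -0.82 in wound 6 to -2.41 in wound 3, and 20 members were called with animals summed, with or without wound 5. Of 14 tested genes of smooth muscle and pericytes, 5 were higher in the center, 1 was higher at the edge and 8 were not called. The list median was -0.45, and 0.39 in wound 5, beside 22.4% and 23.7% of all tested genes called in the center and at the edge. PDGFRB was at 281, 332 and 493 CPM in the center and 53.8, 112 and 207 CPM at the edge (-1.64 ± 0.27 SE, adjusted p = 0.003), and CSPG4, KCNJ8 and ABCC9 differed by -2.06 to -2.17. The contractile genes ACTA2 and MYH11 were not called, with medians of 123 and 54.8 CPM at the edge and 188 and 50.5 CPM in the center. NOTCH3 was higher at the edge, at 371 against 113 CPM. Lymphatic genes showed no common direction: LYVE1, which macrophages share, was higher in the center, PDPN, which keratinocytes share, was higher at the edge, and PROX1, the lymphatic regulator, was at 1.34 and 1.78 CPM with no call.

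Fibroblast and matrix genes were higher in the center in 14 of 23 tested members, beside 22.4% of all tested genes. None were higher at the edge, and the median was -1.40. The main fibrillar collagens were not among the 14. COL1A1 was at 1610, 5520 and 7249 CPM at the edge and 2984, 4481 and 5014 CPM in the center, both under the day 0 median of 20070 CPM, and the groups overlapped (0.07 ± 0.23 SE, adjusted p = 0.818). COL1A2, COL3A1, DCN and LUM had no call either. COL5A2, which sets the diameter of collagen fibrils, was at 722, 1017 and 1253 CPM in the center and 106, 209 and 444 CPM at the edge (-2.28 ± 0.29 SE, adjusted p = 0.00154). FBLN2, COL6A3, PCOLCE and FBN1, genes of microfibrils and collagen assembly, differed by -2.47 ± 0.27 (SE, adjusted p = 0.00133), -2.03 ± 0.36 (SE, adjusted p = 0.00365), -2.24 ± 0.34 (SE, adjusted p = 0.00229) and -1.66 ± 0.23 (SE, adjusted p = 0.00173).

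SFRP2, a WNT modulator of dermal fibroblasts, had a wide spread. It was at 36.2, 177 and 410 CPM in the center and 2.9, 10.3 and 81.7 CPM at the edge and overlapped (-3.37 ± 0.70 SE, adjusted p = 0.00693), with the edge of wound 6 above 3 of the centers. Among matricellular genes, 8 of 19 were higher in the center and 2 at the edge, beside 22.4% and 23.7% of all tested genes. CCN1, FAP and LOXL2 were higher in the center, with differences of -2.14 ± 0.44 (SE, adjusted p = 0.00656), -1.46 ± 0.33 (SE, adjusted p = 0.00953) and -2.14 ± 0.41 (SE, adjusted p = 0.00484). POSTN, periostin, rose at the edge, at 677, 960 and 2151 CPM against 192, 342 and 917 CPM (1.53 ± 0.32 SE, adjusted p = 0.00702), and GREM1, a BMP antagonist, rose by 1.85 ± 0.27 (SE, adjusted p = 0.002). Both POSTN values were under the day 0 median of 3760 CPM. TNC, tenascin C, was at 343 CPM at the edge and 985 CPM in the center and was not called over the 6 wounds (adjusted p = 0.121). It was called without wound 5 (adjusted p = 0.0437) and with animals summed (adjusted p = 0.0213).

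Interferon-stimulated genes were higher in the center as a whole list. All 21 tested members were called there, beside 22.4% of all tested genes, with a median of -1.33, and 20 were without wound 5. GBP1 (ENSSSCG00025040795), a guanylate-binding protein of interferon gamma responses, was at 78.7, 278 and 522 CPM in the center, 16.8, 45.1 and 132 CPM at the edge and 13.8 CPM at the median on day 0 (-2.56 ± 0.56 SE, adjusted p = 0.00842). MX1, an antiviral GTPase, was at 185, 491 and 715 CPM in the center against 75.5, 141 and 296 CPM, with 17.5 CPM on day 0 (-1.56 ± 0.34 SE, adjusted p = 0.00788). Both overlapped between groups while every wound had the higher value in its center. OAS1 and IFI6 did not overlap and differed by -1.81 ± 0.36 (SE, adjusted p = 0.00583) and -1.64 ± 0.31 (SE, adjusted p = 0.00452). Summed levels were 1088 to 3691 CPM at the edge, 2770 to 7580 CPM in the center and 434 to 640.2 CPM in day 0 skin, so both sites stood above unwounded skin. Without the wound block 16 members were called, and with animals summed 21.

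Antigen presentation genes were called in the center in 11 of 14 tested members, beside 22.4% of all tested genes, and at the edge in none. B2M, the light chain of class I molecules, was at 220, 311 and 368 CPM in the center and 90.9, 122 and 185 CPM at the edge, without overlap (-1.29 ± 0.14 SE, adjusted p = 0.0012). The immunoproteasome subunits PSMB10 and PSMB9 differed by -1.63 ± 0.23 (SE, adjusted p = 0.00187) and -1.28 ± 0.27 (SE, adjusted p = 0.00724). The class II regulator CIITA was at 65.2 and 30.6 CPM at the median. Without wound 3, 7 members were called.

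Complement genes were higher in the center in 12 of 20 members and at the edge in 1, beside 22.4% and 23.7% of all tested genes. Their median was -1.33. SERPING1, the C1 inhibitor, was at 739, 870 and 1196 CPM in the center and 74.1, 180 and 295 CPM at the edge (-2.39 ± 0.35 SE, adjusted p = 0.00204). C2, a protease of the classical pathway, was at 116, 170 and 188 CPM in the center against 4.61, 23.5 and 57.3 CPM (-2.90 ± 0.49 SE, adjusted p = 0.00321). CFB of the alternative pathway differed by -1.99 ± 0.28 (SE, adjusted p = 0.00187) and C1R by -1.85 ± 0.29 (SE, adjusted p = 0.00242). None of these 4 overlapped. C3, the central component, was at 88.7 CPM at the edge and 90 CPM in the center and was not called (adjusted p = 0.851). MASP1, a lectin pathway protease, was the one higher at the edge, at 8.96, 10.8 and 38.3 CPM against 0.833, 1.23 and 6.01 CPM (3.02 ± 0.21 SE, adjusted p = 0.000986).

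Coagulation and fibrinolysis genes had 4 members higher at the edge and 7 in the center of 18, beside 23.7% and 22.4% of all tested genes. The tissue plasminogen activator PLAT (-2.30 ± 0.31 SE, adjusted p = 0.00174), factor V (F5, -2.66 ± 0.32 SE, adjusted p = 0.00142) and protein S (PROS1, -2.22 ± 0.35 SE, adjusted p = 0.00253) were higher in the center. At the edge the protease receptor F2RL1 rose by 3.91 ± 0.46 (SE, adjusted p = 0.00141), the tissue factor pathway inhibitor TFPI by 3.90 ± 0.63 (SE, adjusted p = 0.00274), and the serpins SERPINB2 and SERPINE2 by 2.57 ± 0.42 (SE, adjusted p = 0.00292) and 1.47 ± 0.14 (SE, adjusted p = 0.00106).

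**Figure D3:**
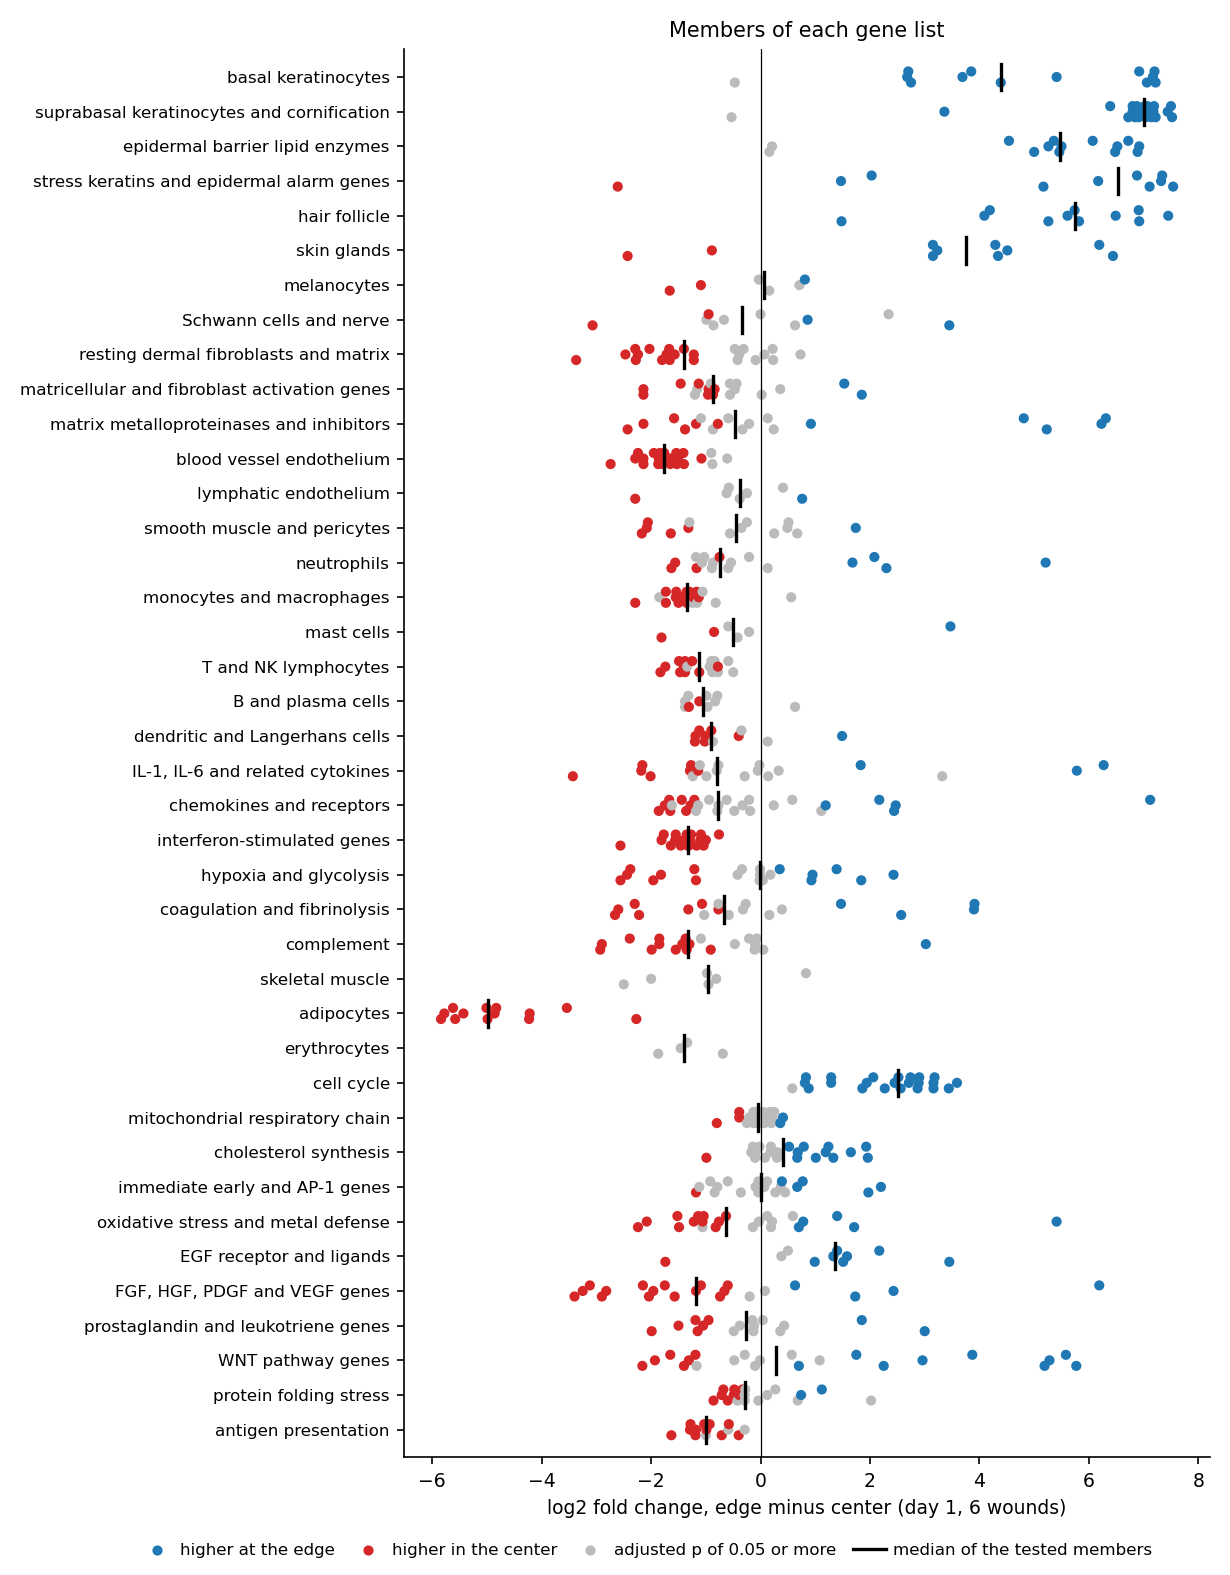
Log2 fold change, edge minus center, of every tested member of the 40 gene lists. Points are genes, blue where called higher at the edge, red where called higher in the center and grey otherwise, and black bars are list medians. Keratinocyte, follicle and cell cycle lists lie to the right, and the adipocyte, endothelial, interferon, complement and fibroblast lists lie to the left.

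Among leukocyte genes, neutrophil sums at both sites were above every day 0 library. The neutrophil list summed to 995.3 to 6386 CPM at the edge, 1188 to 2294 CPM in the center and 80.33 to 115.4 CPM on day 0. Of 17 members 4 were higher at the edge and 4 in the center, shares near the 23.7% and 22.4% of all tested genes. The edge genes were S100A8, S100A9 and S100A12, which keratinocytes can also make, and LTF, which glands make. S100A8 (ENSSSCG00025058666) was at 137, 197 and 1208 CPM at the edge, 33.1, 62.4 and 96.3 CPM in the center and 1.93 CPM at the median on day 0 (2.30 ± 0.46 SE, adjusted p = 0.00618). Its edges did not overlap with the centers, and the edges of wounds 1 and 3 stood far above the others at 1006 and 1208 CPM.

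The surface receptors of neutrophils had no call at the edge. CSF3R, the G-CSF receptor, was at 21.4, 85.6 and 149 CPM at the edge and 67.4, 148 and 372 CPM in the center (-1.18 ± 0.43 SE, adjusted p = 0.0585), and CXCR2 was at 56.4 and 87.1 CPM at the median (adjusted p = 0.246). ITGAM, an integrin chain of myeloid cells, was called in the center. Leaving out wound 2, 3, 4 or 5 left 2 neutrophil genes called in the center, leaving out wound 1 left 7, and summing animals gave 9.

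Monocyte and macrophage genes had 14 of 20 members called in the center, beside 22.4% of all tested genes. None were called at the edge, and the median was -1.34. CD163, the hemoglobin scavenger receptor of macrophages, was at 104, 375 and 848 CPM in the center and 32.4, 108 and 428 CPM at the edge, and day 0 skin had 30.8 CPM (-1.73 ± 0.52 SE, adjusted p = 0.0284, or 0.0648 without wound 5). In wound 1 it was higher at the edge, at 150 against 103.7 CPM, and in the other 5 wounds higher in the center. C1QB, a complement subunit made by macrophages, was at 81.3, 128 and 165 CPM in the center against 10.2, 50.9 and 75.8 CPM without overlap (-1.55 ± 0.31 SE, adjusted p = 0.00583). CD14 and CD68 were not called, with center medians of 398 and 70.9 CPM and edge medians of 161 and 44.9 CPM. The list median was 0.28 in wound 1 and between -2.56 and -0.76 in the other 5 wounds. Without wound 2, 3, 4 or 5 the calls came to 7 or 8, without the wound block to 8, and with animals summed to 17.

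The T and NK cell list summed to 159.7 to 429.4 CPM at the edge and 366.7 to 710.6 CPM in the center, and the B cell list to 14.41 to 53.63 CPM and 25.72 to 121.1 CPM. Of 19 T and NK cell genes 10 were called in the center, led by TBX21, the T helper 1 regulator, at 2.67, 4.95 and 8.44 CPM against 0.592, 1.32 and 2.68 CPM (-1.83 ± 0.35 SE, adjusted p = 0.0049). The CD3 subunits of the T cell receptor complex, CD3D and CD3E, were not called, at 10.4 and 10.3 CPM at the edge and 13.8 and 14.5 CPM in the center. Over all tested genes 22.4% were called in the center with 6 wounds. Leaving out wound 2, 3, 4 or 5 gave 3 to 6 T and NK cell genes called in the center. Dendritic cell genes had 7 of 11 members called in the center, beside the same 22.4% of all tested genes, and 3 or 4 without wound 2, 3, 4 or 5. CD207, langerin, the marker of the Langerhans cells of the epidermis, was the member that rose at the edge, at 0.561, 4.29 and 5.49 CPM against 0.666, 1.12 and 2.43 CPM (1.49 ± 0.38 SE, adjusted p = 0.015), a call lost without wound 4. Among mast cell genes KIT and MS4A2 were called in the center and HPGDS at the edge. Of 10 B cell genes 2, CD79A and CD22, were called in the center, a share near the 22.4% of all tested genes, and 1 to 6 when a wound was left out.

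**Figure D4:**
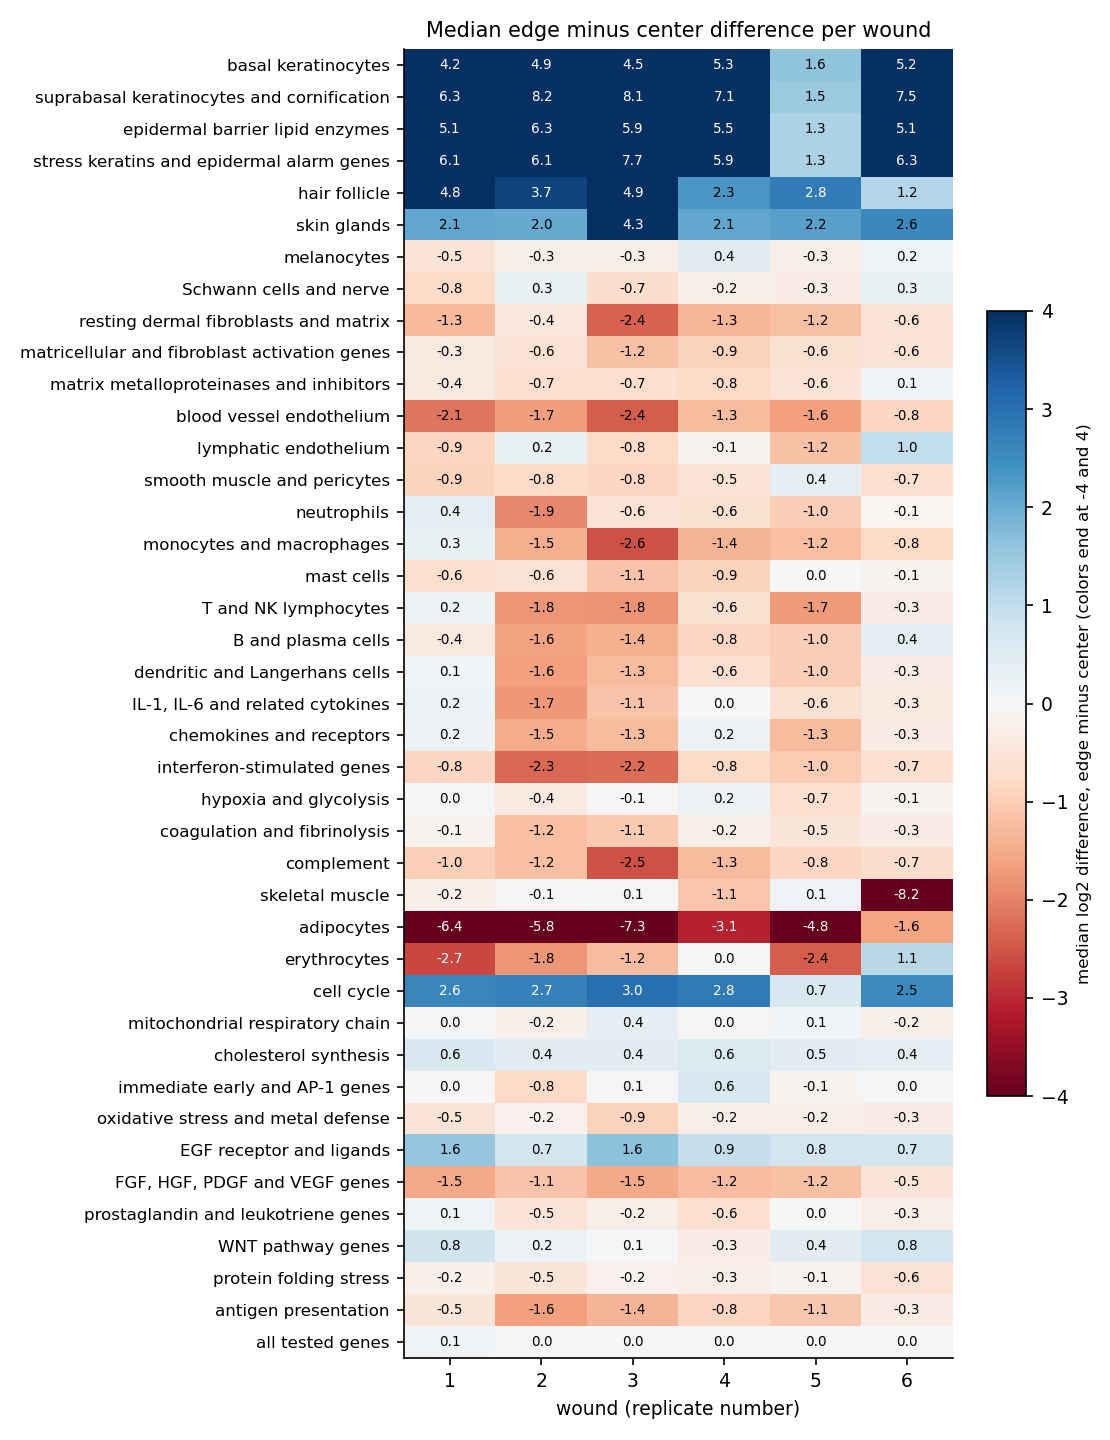
Median log2 difference, edge minus center, of each gene list in each of the 6 wounds, with the value printed in each cell. Blue is higher at the edge, red is higher in the center, and colors end at -4 and 4. Wound 5 has the smallest keratinocyte differences, wound 6 the smallest adipocyte difference, and in wound 1 the neutrophil, macrophage, T cell and dendritic cell lists lie above 0.

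Cytokines of the IL-1 and IL-6 families were split between the sites. IL1B (ENSSSCG00025004370) was at 5.21, 30.2 and 79.8 CPM at the edge, 17.2, 55.4 and 70.1 CPM in the center and 0.0536 CPM at the median on day 0. The range of the edges held that of the centers and 2 of 6 wounds were higher at the edge (-0.99 ± 0.50 SE, adjusted p = 0.141). IL1A, TNF and IL1RN were not called either. IL36A, an epithelial IL-1 relative, was at 0.751, 4.08 and 23.9 CPM at the edge and 0, 0 and 0.717 CPM in the center (5.78 ± 0.98 SE, adjusted p = 0.00321), so every edge was above every center. With most centers at 0, IL36A passed the filter mainly through its edge libraries, so its call is a description. Its antagonist IL36RN rose by 6.27 ± 1.06 (SE, adjusted p = 0.00323) and the decoy receptor IL1R2 by 1.83 ± 0.44 (SE, adjusted p = 0.0123).

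IL6 was at 3.81, 29.2 and 227 CPM in the center and 0.844, 3.89 and 6.15 CPM at the edge (-3.43 ± 0.91 SE, adjusted p = 0.0186), and the lowest center was that of wound 5. Without wound 5 its groups did not overlap and it differed by -3.98. The related cytokines LIF and IL11, the granulocyte factor CSF3 and the oncostatin M receptor OSMR were called in the center with it. OSMR was at 131, 159 and 186 CPM in the center against 51.6, 61.8 and 89.1 CPM and did not overlap (-1.29 ± 0.17 SE, adjusted p = 0.00155). In all, 3 of 21 members were higher at the edge and 7 in the center, beside 23.7% and 22.4% of all tested genes. With animals summed IL6 had an adjusted p of 0.116, and leaving out wound 1, 2 or 3 left 4 members called in the center.

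Chemokines that attract neutrophils were high at both sites with no call between them. CXCL8 was at 42, 243 and 1136 CPM at the edge and 188, 336 and 814 CPM in the center, against 0.109 CPM on day 0 (-0.94 ± 0.52 SE, adjusted p = 0.174). CCL2, the monocyte chemokine, was at 154, 606 and 1311 CPM in the center and 59.7, 141 and 419 CPM at the edge and was higher in the center of all 6 wounds (-1.75 ± 0.40 SE, adjusted p = 0.0103). CXCL12, a chemokine of stroma, and ACKR1, the chemokine receptor of venules, were higher in the center, with differences of -1.86 ± 0.33 (SE, adjusted p = 0.00379) and -1.65 ± 0.23 (SE, adjusted p = 0.00185). CCL28 and CXCL14, which epithelia make, rose at the edge by 7.12 ± 1.32 (SE, adjusted p = 0.00448) and 2.17 ± 0.30 (SE, adjusted p = 0.00178). The list as a whole had 5 members higher at the edge and 8 in the center of 27, near the shares of all tested genes (23.7% and 22.4%), with 3 at the edge without wound 2, 3 or 4.

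Genes that respond to low oxygen did not move in 1 direction, with 6 members higher at the edge and 7 in the center of 20, not far from the 23.7% and 22.4% of all tested genes. HK2, the inducible hexokinase, was at 138, 323 and 500 CPM in the center and 45.1, 51 and 77.9 CPM at the edge (-2.44 ± 0.26 SE, adjusted p = 0.00126). ADM, adrenomedullin, was at 43.4, 61.1 and 114 CPM in the center against 5.97, 12.6 and 15.5 CPM (-2.56 ± 0.28 SE, adjusted p = 0.00133). Neither overlapped, and HILPDA, ANGPTL4 and PLOD2 went with them. CA12, EGLN3, NDRG1, PDK1 and ANKRD37, members of the same list, rose at the edge, CA12 by 1.84 ± 0.16 (SE, adjusted p = 0.000994). The glycolytic enzymes PGK1, LDHA and ENO1 had differences of -0.02, 0.04 and -0.01 and were not called.

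Antioxidant genes were called in the center in 11 of 23 members and at the edge in 5, and 7 were not called. The share at the edge was near the 23.7% of all tested genes, and 22.4% of all tested genes were called in the center. SOD2, the mitochondrial superoxide dismutase, was at 3159, 4173 and 4931 CPM in the center, 864, 1408 and 2154 CPM at the edge and 113 CPM at the median on day 0 (-1.49 ± 0.21 SE, adjusted p = 0.00191), so that all 3 groups were apart. SOD3, CAT and GPX1 differed by -2.24 ± 0.42 (SE, adjusted p = 0.00459), -2.08 ± 0.38 (SE, adjusted p = 0.00414) and -1.52 ± 0.19 (SE, adjusted p = 0.00152). The metallothioneins MT2A and MT1A, which bind zinc and copper, rose at the edge by 1.71 ± 0.14 (SE, adjusted p = 0.000986) and 1.40 ± 0.20 (SE, adjusted p = 0.00201), and GPX2, the epithelial glutathione peroxidase, by 5.41 ± 1.17 (SE, adjusted p = 0.0081).

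**Figure D5:**
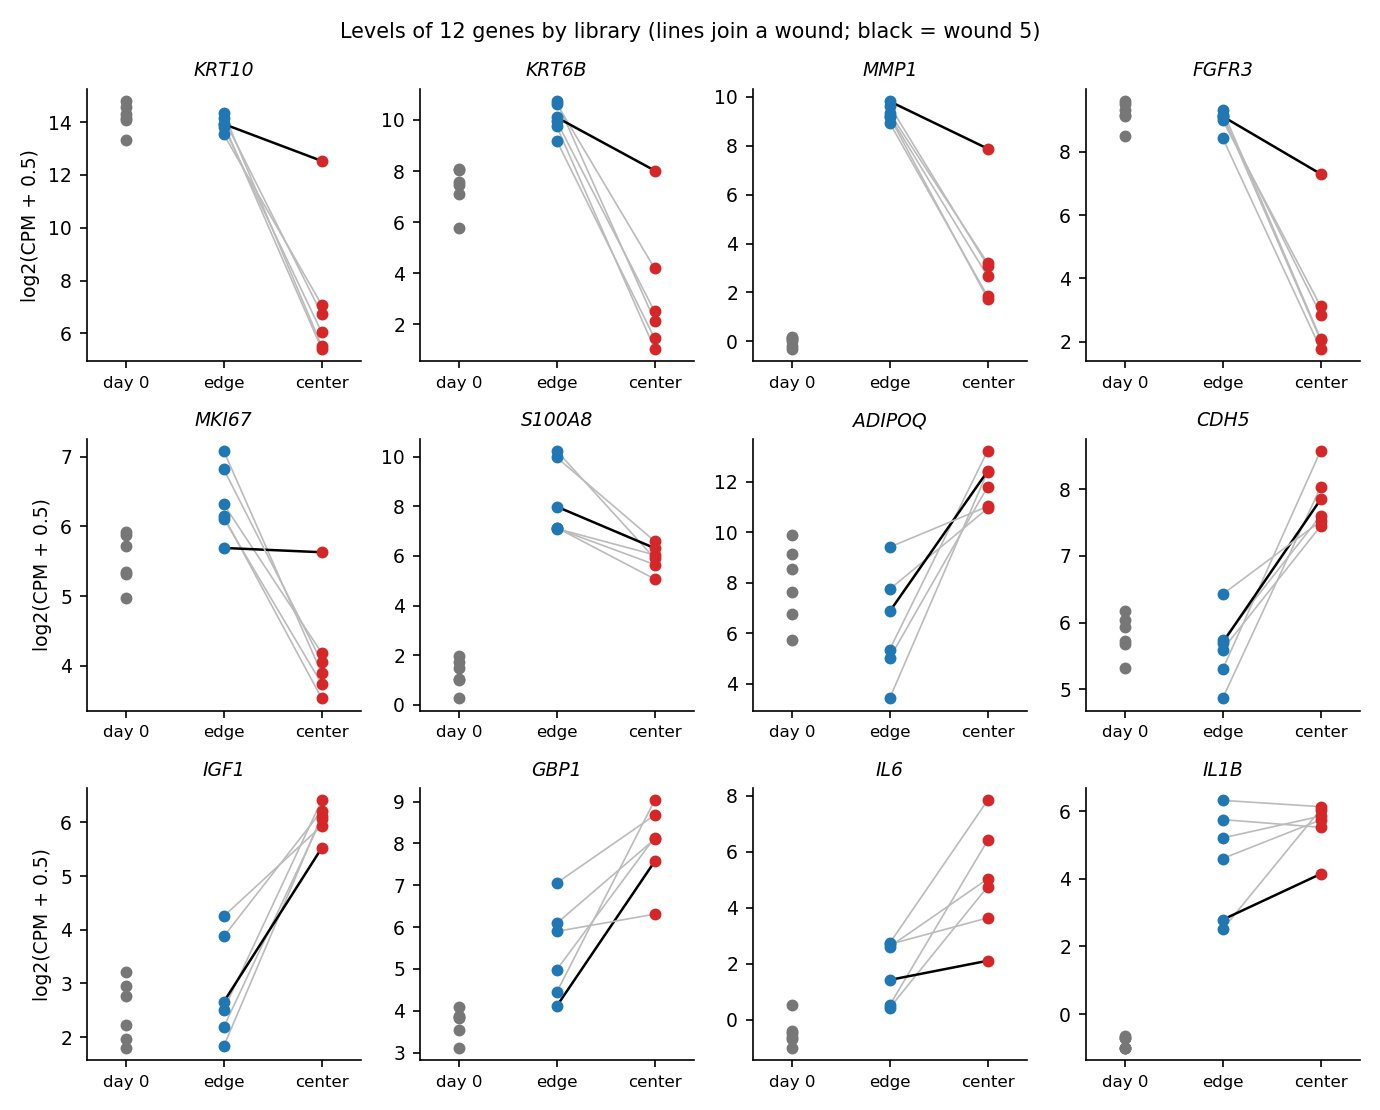
Levels of 12 genes, as log2(CPM + 0.5), in day 0 skin and at the edge and in the center on day 1. Points are libraries, grey lines join the edge and center of a wound, and the black line is wound 5. KRT10, KRT6B, MMP1 and FGFR3 fall from edge to center with the center of wound 5 above the other centers, ADIPOQ, CDH5 and IGF1 rise in each wound, and IL1B overlaps between the sites.

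Whether the difference between edge and center itself differed between wounds was tested in 2 ways. Between wounds A and L, 2 of 14432 genes were called (0.0139%), and 2449 (17.0%) had an unadjusted p below 0.05. Between the 3 animals 0 genes were called by edgeR's quasi-likelihood test, with 365 (2.53%) at an unadjusted p below 0.05. The genes called between wound letters were TLN2, a talin that links integrins to actin, and ABCA6, a lipid transporter, and both calls were lost without wound 5 and, separately, without TMM scaling.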

How the data were processed

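RNA of 12 day 1 biopsies (6 wounds, edge and center) and 6 day 0 skin samples was analysed from the gene count table that the authors deposited. Per the study's methods, Novogene made poly-A libraries, sequenced paired reads, removed adapter, poly-N and low-quality reads, aligned the rest and counted them per gene; the aligner, counter, strand setting and genome build are not given in the sources used here. A table of FPKM values was not used. No column of the count table lacked a matching sample (0 left out). Of 30461 genes, 12300 carried a name, 9387 were named by the protein match in their description and 8774 had none; 705 of 764 list symbols were matched.

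Counts were tested with edgeR 4.0.16 (limma 3.58.1, R 4.3.3): filterByExpr (counts of at least 10, total of at least 15) left 14432 genes, TMM factors were set over 18 libraries, and glmQLFTest was run on the 12 day 1 libraries with the wound as a block, two-sided, with Benjamini-Hochberg adjustment and a threshold of 0.05. Edge and center were paired because the labels give the same animal and wound. Deviations from the group means correlated between the edge and center of a wound by -0.0721 to 0.3014 (mean 0.1061). Between different wounds the correlations ran from -0.331 to 0.3176. Their average of -0.0206 is nearly fixed by taking deviations from the group means, so it is no separate measure of the pairing. Residual degrees of freedom were 5, totals per library were 13685366 to 19093847 counts on day 1 and 15698806 to 21415735 on day 0, and a gene with a median of 10 counts has a wide counting error.

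Alternatives were no replicate block, no TMM, TMM over the day 1 libraries alone, DESeq2 1.42.0, no filter, the 2 wounds of an animal summed, a fold of at least 2 and each wound left out. Leaving wound 5 out of the sums per animal and out of the test between wound letters was added after the data were seen. In counts simulated on these 14432 genes with 200 genes changed, the blocked test found 29% of the genes changed 2-fold and 79% of those changed 4-fold, with 3.57% false among its calls. Without the block these were 43%, 90% and 5%, and for DESeq2 62%, 94% and 27.1%. Far more genes, 46.1%, were called in the data, so these rates need not hold for it.

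Genes named were, for each of 40 lists, up to 4 called members per direction by size with a median of at least 1 CPM, the first 2 members of the list, the 15 largest differences per direction over all genes with a symbol (same sign in 6 wounds, at least 5 CPM), and IL1B and KRT10. Some genes that this rule names are not reported here. Other list members named in the text were chosen after their values were seen. The gene lists and the comparison were chosen with earlier results of these data known. Summaries and figures were made with Python (3.11.15) using scipy 1.17.1, pandas 2.3.3 and numpy 2.4.6. Sequences and genome positions were not analysed here.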

Additional observations from a re-analysis of the deposited data

Results flagged for a closer look

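Of 170 groups of 6 libraries examined, 22 had a highest or lowest library set apart from the other 5, with a gap above Dixon's critical share of the whole range on the log2 scale, where chance gives about 1 in 20, or 8.5. The groups share libraries, and lists were counted beside their own members, so 22 against 8.5 is not a test. Of the 22, 17 were the center of wound 5. Its mean level was set apart from the other centers, on the high side, for basal keratinocyte genes (gap of 0.687 of the range), suprabasal genes (0.786), barrier lipid enzymes (0.863), stress keratins and alarm genes (0.701) and skin gland genes (0.871). Among single genes it was the high center for TP63 (0.809), KRT5 (0.652), DSG1 (0.812), KRT10 (0.766), ALOXE3 (0.826), MMP1 (0.762), MMP12 (0.677), IL36A (0.677), MKI67 (0.689), FGFR3 (0.757) and PROM2 (0.666). It was the low center for IL1B (0.693), at 17.2 CPM against 45.7 to 70.1 CPM. At the median over 1719 genes higher in the center it lay 9.11% of the way to the edge.

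The center of wound 6 was set apart on the high side for skeletal muscle genes (0.838). It held CKM at 2138 CPM and TTN, the giant sarcomere protein, at 905 CPM. The center of wound 2 was the high one for immediate early genes (0.765). Among edges, that of wound 5 was low for B and plasma cell genes (0.723), and that of wound 6 was high for HK2 (0.662) and low for FGFR3 (0.643).

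The difference between edge and center was itself different between wounds A and wounds L for 2 genes. TLN2 (ENSSSCG00025077296), a talin, had an adjusted p of 0.0435 by edgeR's quasi-likelihood test, with the difference higher by 2.14 in wounds L. It was at 9.29, 13.1 and 27.1 CPM at the edge and 42, 84 and 128 CPM in the center. ABCA6 (ENSSSCG00025024640), a lipid transporter, had an adjusted p of 0.0435 and a difference higher by 3.83 in wounds L.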

How the results depend on the processing

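Calls over all genes kept within 1.5 times of the counts reported, 3421 at the edge and 3237 in the center, under each setting of test, scaling, filter and replicate. Without the replicate block they were 3493 and 3228, without TMM 3127 and 3609 (the median difference moved by -0.057), with DESeq2 3629 and 3891, with no filter 3284 and 3129, with wounds summed per animal 2928 and 3302, and with wounds left out in turn 2726 to 3199 and 2312 to 3280. A fold of at least 2 left 1927 and 1852, since it adds a condition. Of the genes called at the edge and in the center, 94.7% and 90.5% were also called without the replicate block, 75.7% and 88.0% with animals summed and 79.3% and 71.3% without wound 3. Among 262 named genes, sums per animal lost 63 calls and added 10, and each wound left out lost 5 to 29. Between wounds A and L, 2 genes were called, 0 without TMM, 10 with no filter and 0 without wound 5. The cause was not tested. Genes whose sign turned, none of them called, were MITF (-0.22 to 0.07 over wounds left out), COL1A1 (-0.06 to 0.26), PROX1 (-0.96 to 0.01, and 0.39 with animals summed without wound 5) and NDUFA4 (-0.01 to 0.15, and -0.01 with animals summed without wound 5). In counts simulated for 6 wounds with 200 genes changed, changes of 2-fold were often missed. Since 46.1% of genes were called in the data, that rate need not hold for this comparison.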

Other observations

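Of 16 tested lipid mediator genes 8 were called, with 6 of them higher in the center and 2 at the edge, which is near the 46.1% called over all tested genes. ALOX15, a lipoxygenase of arachidonic and linoleic acid, was at 44.2, 51.9 and 59.2 CPM at the edge and 3.71, 5.43 and 23.1 CPM in the center (3.00 ± 0.36 SE, adjusted p = 0.00143). HPGD, which breaks prostaglandins down, rose at the edge by 1.85 ± 0.46 (SE, adjusted p = 0.014). In the center the inducible cyclooxygenase PTGS2 and the prostacyclin synthase PTGIS were higher, with differences of -1.05 ± 0.24 (SE, adjusted p = 0.00967) and -1.99 ± 0.26 (SE, adjusted p = 0.00158). Edge and center did not overlap for ALOX15 and PTGIS.

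Transcription factors of the immediate early class showed 5 of 20 members higher at the edge and 1 in the center, where 23.7% and 22.4% of all tested genes were called, and 3 at the edge without wound 3, 4 or 6. KLF4, which epidermis needs for its barrier, was at 285, 316 and 448 CPM at the edge and 45.2, 63.1 and 174 CPM in the center (2.20 ± 0.19 SE, adjusted p = 0.000992). KLF2, known from endothelium under flow, was the one higher in the center (-1.18 ± 0.28 SE, adjusted p = 0.0111), and FOS was not called (adjusted p = 0.0859).

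Genes of protein folding had 8 of 19 members higher in the center and 2 at the edge, beside 22.4% and 23.7% of all tested genes. Without wound 3 there were 5 in the center. DNAJB1, a heat shock co-chaperone, rose at the edge by 1.12 ± 0.09 (SE, adjusted p = 0.000986) and HSPD1, a mitochondrial chaperone, was higher in the center (-0.71 ± 0.10 SE, adjusted p = 0.00196). Most respiratory chain genes were not called, 18 of 23, where 46.1% of all tested genes were called. The 3 called in the center were SDHA, SDHB and SDHC, subunits of succinate dehydrogenase. SDHA differed by -0.80 ± 0.10 (SE, adjusted p = 0.00153).

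Genes of nerve sheath went both ways, with 2 of 10 tested members higher at the edge and 2 in the center. These shares were near the 23.7% and 22.4% of all tested genes. ERBB3, a neuregulin receptor that epithelia share, and PRX, a myelin protein, rose at the edge by 3.45 ± 0.38 (SE, adjusted p = 0.00133) and 0.86 ± 0.21 (SE, adjusted p = 0.013). NGFR, the low-affinity neurotrophin receptor, was at 26.2, 81.1 and 219 CPM in the center and 6.62, 8.01 and 16.2 CPM at the edge, without overlap (-3.07 ± 0.55 SE, adjusted p = 0.00385). PMP22, a myelin protein, was higher in the center too (-0.95 ± 0.17 SE, adjusted p = 0.00344). Of 6 tested melanocyte genes 1 was higher at the edge, GPR143 (0.81 ± 0.27 SE, adjusted p = 0.0425), and 2 in the center. Over all tested genes these shares were 23.7% and 22.4%. No melanocyte gene was called at the edge with any 1 wound left out, without TMM, with no filter or with animals summed. SLC45A2, a transporter of pigment cells, differed by -1.09 ± 0.31 (SE, adjusted p = 0.0219). EDNRB, an endothelin receptor of melanocytes and vessels, was higher in the center (-1.66 ± 0.36 SE, adjusted p = 0.00844). The hemoglobin genes HBA and HBB were not called (adjusted p of 0.0708 and 0.0506).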
